A study of Mus musculus with 3 samples.

Results

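The comparison described here is that of a cardiomyocyte preparation from adult mice with one from embryonic mice, read across all genes of an Illumina bead array. Its members were the probes with a detection score above 0.99 in the adult array, the embryonic array or both, where the score rises towards its maximum as a probe stands out from the array's background. They numbered 16693 of the 46632 probes on the array. Of these probes, 51.8% were at least 2-fold apart between the arrays. In all 11488 (68.8%) were detected in both arrays, 2627 only in the adult array and 2578 only in the embryonic array. For comparison, 16967 probes met the same rule between the neonatal and the embryonic array and 16411 between the adult and the neonatal array.

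The study compared murine heart muscle cells of 3 developmental stages, each on 1 array. The embryonic array held RNA from hearts of embryonic day 11 to 12, the neonatal array from day 3 to 4 after birth, and the adult array from mice of at least 10 weeks, as the labels state. All 3 share the strain label eGFP α-MHC on DBA. That label names a green fluorescent protein and the protein encoded by Myh6, whose gene serves in such mice as the source of a heart muscle promoter, and it applies to the embryonic array as much as to the adult one. Hearts were taken apart with a Liberase enzyme blend and each sample pools the RNA of more than one heart. The design text speaks of FACS samples, with no gate stated. With 1 pooled array at each stage there is no replicate, so the text gives sizes and the error between beads of a probe, and no p-value.

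Heart muscle cells contract through sarcomeres, in which thick filaments of myosin pull on thin filaments of actin under the control of calcium released from the sarcoplasmic reticulum. In the embryo these cells still divide, and after birth most leave the cell cycle while mitochondria come to fill much of the cell. The adult heart also holds many fibroblasts, endothelial cells, mural cells and resident macrophages, which make and survey the extracellular matrix.

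The cell type label was first set against markers. All 22 cardiomyocyte markers looked up were detected at both younger stages, and 16 of 22 in the array labelled adult. Their summed normalized intensity was 346963, 190373 and 9846 (embryonic, neonatal, adult). Myh6, the myosin heavy chain named in the strain label, had raw intensities of 3009, 1162 and 79.7 in the same order, and in the adult array it did not pass the detection limit. Ttn, Mybpc3, Ldb3, Ckm and Ckmt2 were the other markers not detected in the adult array. The data of the adult array thus go against its label as a cardiomyocyte preparation, and "the adult array" below means the array labelled adult.

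Markers of other heart cells moved the opposite way. Of 15 fibroblast markers, 5 were detected in the embryonic array and 14 in the adult array, and their summed intensity was 5185 and 206804. Of 18 macrophage markers, 4 and 15 were detected, with sums of 1255 and 51527. Endothelial markers summed to 3831 and 15630, with 7 and 12 of 16 detected. Among the macrophage markers, Cd163, Msr1 and Fcer1g were at background in both arrays, as was Tcf21 among those of fibroblasts. T and NK cell markers were not detected in either array apart from Thy1, which fibroblasts also express, and Cd4, Cd8a, Cd3e and Lck were at background. The part that such other cells have in the differences below was not tested, and in pooled RNA fewer cells of a type and less RNA per cell cannot be told apart.

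**Figure D1:**
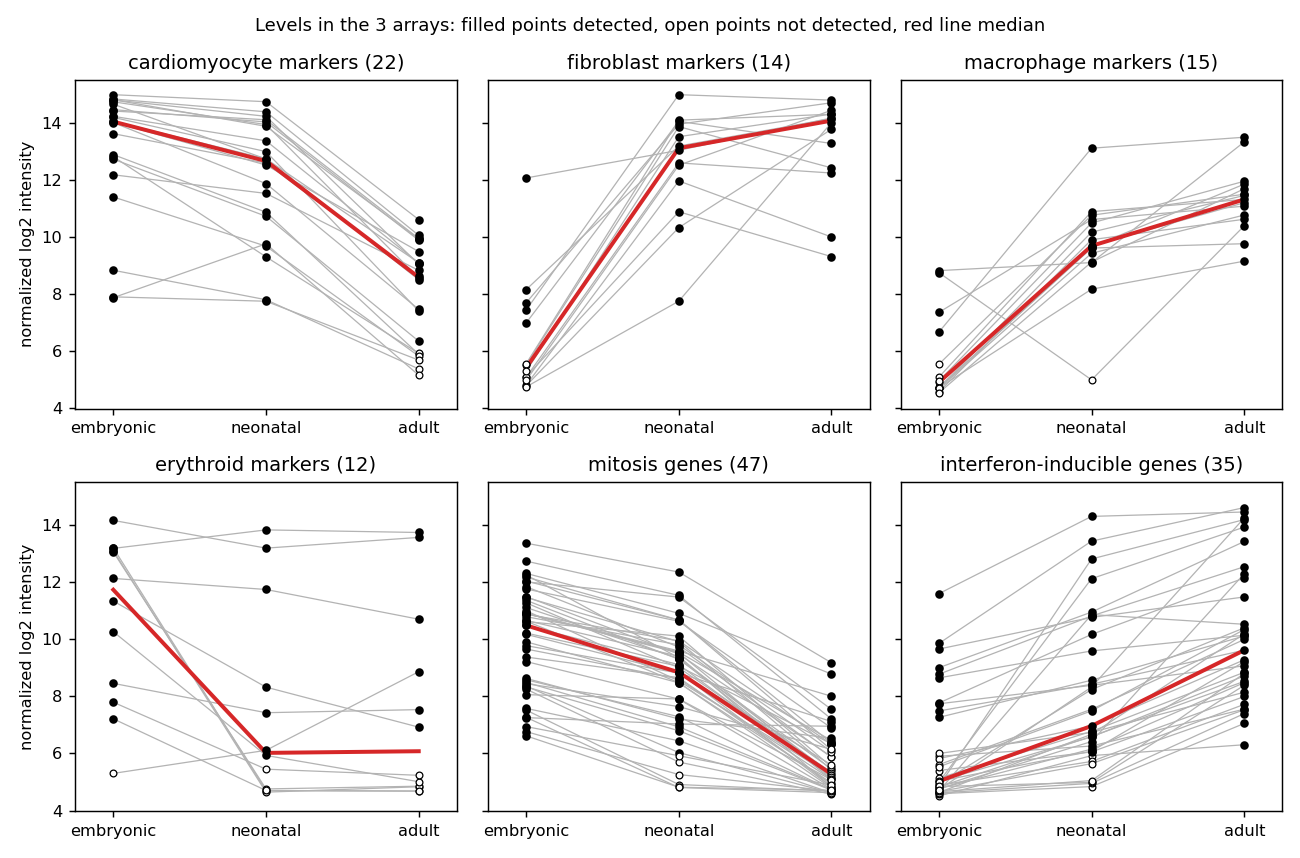
Normalized log2 intensity of each measured member of 6 gene lists in the embryonic, neonatal and adult arrays, 1 grey line per gene and a red line for the median. Cardiomyocyte markers and mitosis genes are lowest in the adult array, while fibroblast, macrophage and interferon-inducible genes are lowest in the embryonic array; 3 embryonic globins leave the detected range between the embryonic and neonatal arrays.

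Differences below are normalized log2 intensity in the adult minus the embryonic array, with the standard error that the spread between beads gives. A gene stands on 1 probe, and is called higher or lower where its measured levels are at least 2-fold apart. Where only 1 array detected it, the fold is a lower bound, written as at least so many fold, since the other array's level lies below the dimmest detected probe. The 14600 member probes with a gene name gave 10554 measured genes, of 20978 genes on the array.

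Of these genes, 2647 (25.1%) were higher in the adult array and 2807 (26.6%) were lower, so 51.7% were at least 2-fold apart. Among the 7866 genes detected in both arrays the figures were 1362 higher (17.3%), 1765 lower (22.4%) and 39.8% apart. The higher genes reached further: 273 genes detected in both arrays were at least 8-fold higher and 172 at least 8-fold lower. Of genes detected in 1 array, 401 were at least 8-fold higher at the bound and 189 at least 8-fold lower. A gene detected in 1 array had little room to be level: 1285 of 1445 detected only in the adult array were called higher, 893 of them still 2-fold at the bound, and 1042 of 1243 detected only in the embryonic array were called lower, 649 of them at the bound. Counts over a list are therefore given with the number measured, and list medians also with such genes set to their bound ("at bounds"). The median difference of all measured genes was -0.18, and the standard deviation over genes was 2.15. Across the 11488 probes detected in both arrays the correlation of levels was 0.72, a description over probes of the same 2 arrays. The split depends on scaling: with arrays centred on their medians in place of quantile normalization, the median difference moved by -0.53, the counts became 2025 higher and 4379 lower, and the share of higher genes among those apart was 31.6% in place of 48.5%.

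**Figure D2:**
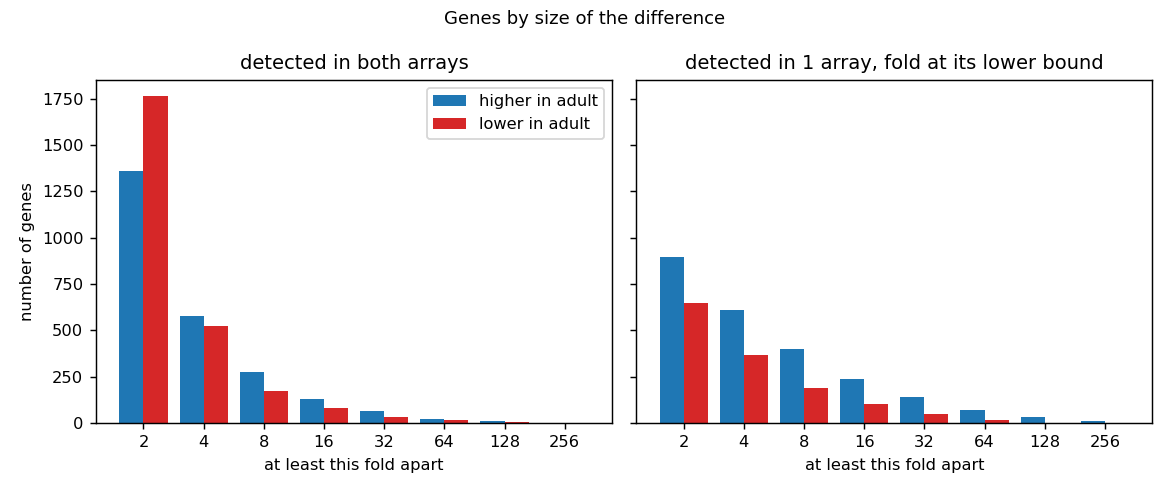
Number of genes at rising minimum folds from 2, for genes detected in both arrays (left) and in 1 array (right, at the lower bound of the fold). Blue bars are genes higher in the adult array and red bars genes lower; lower genes are more numerous at 2-fold in the left panel (1765 against 1362) and higher genes at 8-fold (273 against 172).

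**Figure D3:**
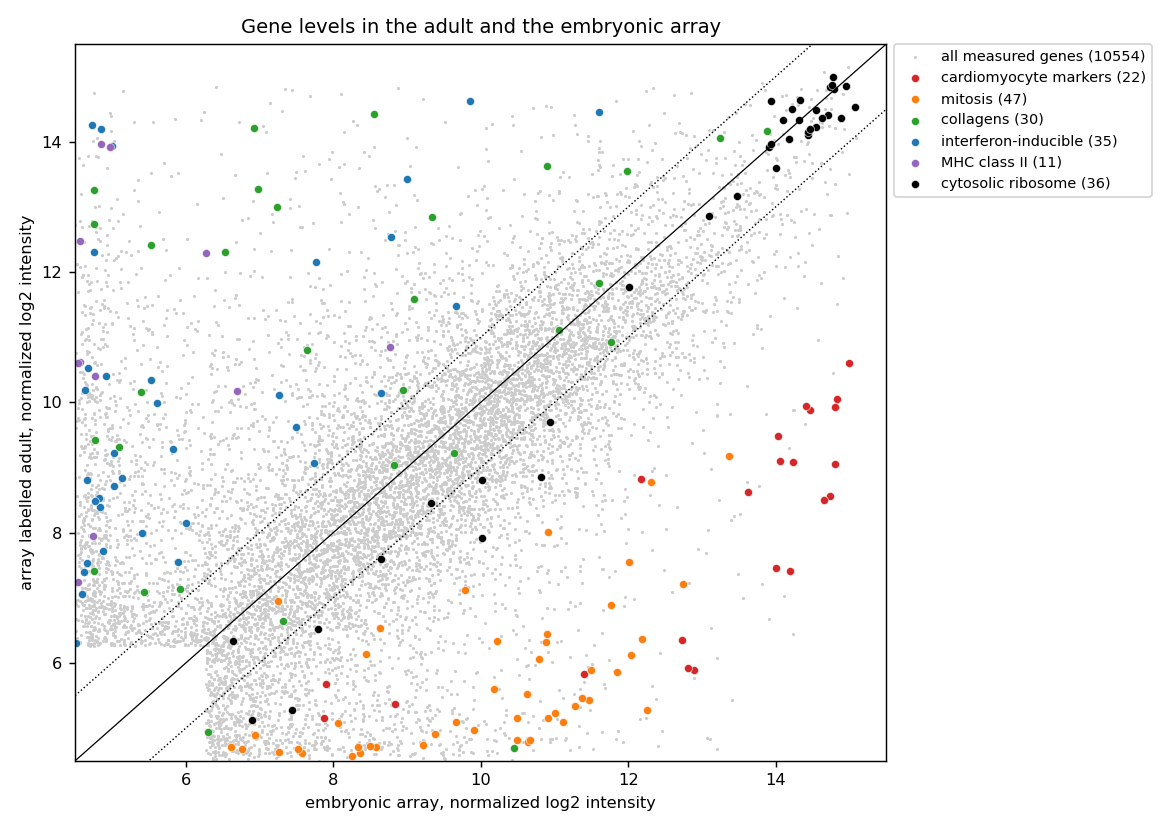
Normalized log2 intensity of 10554 genes in the embryonic (x) and the adult array (y), with 6 gene lists in colour, the line of equal level and dotted lines at 2-fold. Cardiomyocyte markers and mitosis genes lie below the diagonal, interferon-inducible and MHC class II genes lie above it, and the ribosomal proteins lie near it.

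The genes of the sarcomere made up much of the lower tail. Of 15 measured thick filament genes 14 were lower and 0 higher, with a median difference of -4.88 (-4.85 at bounds) beside -0.18 over all genes. Of 17 thin filament genes 14 were lower and 3 higher (median -5.0, -4.78 at bounds), and of 28 genes of the Z-disc and of muscle stress 21 were lower and 2 higher (median -3.55, -2.63 at bounds, -2.27 among genes detected in both arrays). The summed cardiomyocyte markers given above, several of which are sarcomere genes, moved with these lists, and the summed fibroblast markers moved the opposite way; the part of either was not tested.

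Among thick filament genes, Myh7, the slow β-myosin heavy chain, stood at 14.65 in the embryonic and 8.50 in the adult array, 71.1-fold lower (difference -6.15 ± 0.13, bead standard error). Myh6, the fast α-myosin heavy chain of the adult mouse heart, went from 11.40 to a level below detection, at least 35.4-fold lower. The ventricular light chain Myl2 stood at 14.99 and 10.61 (20.8-fold lower), and the atrial and embryonic light chain Myl4 at 14.77 and 10.44 (20.1-fold lower). So both heavy chains and both light chains lay lower, whichever stage or chamber they are known for. Ttn, the giant spring protein titin, was at least 99-fold lower, and Mybpc3, the cardiac myosin-binding protein, at least 94.2-fold lower. Smyd1, a methyltransferase needed for myosin assembly, went from 14.11 to 7.02 (136-fold lower). Myom2, an M-band protein, was the member that did not differ by 2-fold, with 6.64, 9.44 and 6.33 in the embryonic, neonatal and adult array.

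In the thin filament Acta1, skeletal α-actin that the embryonic heart also uses, showed the largest fold loss of all genes detected in both arrays, from 14.23 to 6.45 (221-fold, difference -7.79 ± 0.19). Actc1, cardiac α-actin, stood at 14.80 and 9.05 (54.1-fold lower). The slow skeletal troponins of the embryonic heart were also low: Tnni1 was at least 73.4-fold lower and Tnnt1 70.0-fold lower. Tropomyosins went the other way. Tpm1 stood at 7.92 and 11.03 (8.67-fold higher) and Tpm2 at 10.81 and 12.22 (2.66-fold higher), although for Tpm2 the mean over its detected probes gave a difference of -1.62. Smooth muscle cells and fibroblasts also make tropomyosins. Tmod4, a capping protein, was the third higher member, detected only in the adult array and at least 1.06-fold higher.

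At the Z-disc, Actn2, the α-actinin that anchors thin filaments, was 110-fold lower (14.19 and 7.41). The muscle LIM protein Csrp3 was 93.4-fold lower, the stretch-responsive Ankrd1 93.7-fold lower, and Synpo2l, a cytoskeletal partner of actinin, 96.0-fold lower. Bag3, a chaperone partner that clears damaged filament proteins, was 2.84-fold higher (12.63 and 14.14). For Pdlim7, a LIM protein, the probes disagreed: one gave 12.09 and 8.85, a difference of -3.24, and the other 8.97 and 11.84, a difference of 2.86.

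The promoters of the actin genes are shown because CArG boxes, the sites read by serum response factor, are known from them. The sequences are RefSeq's for build GRCm38.p6, the 250 bases before the start, 5′ to 3′ on the gene's strand, with CArG boxes and the TATA box (TATAAA) in capitals.
Acta1, chr8:123894776-123895025, minus strand: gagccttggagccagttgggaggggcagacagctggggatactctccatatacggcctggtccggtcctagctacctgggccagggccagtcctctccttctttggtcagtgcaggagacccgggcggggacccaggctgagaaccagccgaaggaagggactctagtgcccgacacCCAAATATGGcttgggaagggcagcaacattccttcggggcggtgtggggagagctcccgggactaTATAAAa
Actc1, chr2:114052876-114053125, minus strand: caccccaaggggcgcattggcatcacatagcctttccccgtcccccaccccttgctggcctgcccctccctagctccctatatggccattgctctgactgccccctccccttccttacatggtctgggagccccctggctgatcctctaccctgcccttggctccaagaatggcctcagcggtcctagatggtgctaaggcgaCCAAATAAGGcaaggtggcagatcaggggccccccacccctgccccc
A CArG box was found in 20% of the promoters of measured thick filament genes (15 promoters) and 15.8% of those of thin filament genes (19 promoters), beside 1.47% of all 32851 promoters. Over promoters of genes at least 8-fold lower in the adult array the share was 4.10%, and over those at least 8-fold higher 1.42%. Here and below, shares are of promoters, of which a gene can have more than 1, and all promoters include those of genes not measured. A match is a run of letters in the window and says nothing of binding.

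Calcium cycling genes were largely lower, and ion channels were split. Of 22 calcium cycling genes 14 were lower and 4 higher (median -3.0, -2.56 at bounds). The median was -0.94 with no detection filter and -1.28 at a detection p under 0.05, both of which bring in genes not detected in either array at the stricter limit. Ryr2, the release channel of the sarcoplasmic reticulum, stood at 12.73, 10.73 and 6.35 in the embryonic, neonatal and adult array, 83.2-fold lower in the adult than in the embryonic one. Hrc, a calcium-binding protein of the same store, was 38.5-fold lower, and Pln, the regulator of the calcium pump, 23.2-fold lower. Stim1, a sensor of store calcium found in most cells, was 5.85-fold higher (7.53 and 10.08), and the IP3 receptor Itpr1, also widely made, was 2.30-fold higher. The other higher members were Itpr2 and Asph, a calcium store protein whose probes disagreed in direction.

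Ion channels and pumps had 6 of 20 higher and 8 lower (median 0.01, -0.65 with median centring). Kcnh2, a potassium channel of repolarisation, was at least 14.1-fold lower, and Kcne1, a potassium channel subunit, at least 33.6-fold lower. Scn7a, a sodium channel relative, was 57.7-fold higher (7.81 and 13.66). Kcnj8, a potassium channel pore abundant in mural cells, was at least 9.05-fold higher. At the intercalated disc, where muscle cells join, 10 of 16 genes were lower and 1 higher (median -2.76). That median was -1.23 among genes detected in both arrays, -1.49 with no detection filter and -1.67 at a detection p under 0.05. Gja5, a gap junction protein of atria and conduction cells, was at least 51.0-fold lower, while Gja1, the gap junction protein of working muscle and of fibroblasts, was 2.81-fold lower (14.70 and 13.20). The desmosome genes Pkp2 and Dsg2 were at least 48.4-fold and 33.6-fold lower, and Jup, a plakoglobin shared with other junctions, was 2.49-fold higher.

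Among 29 cardiac transcription factors 20 were lower and 1 higher (median -1.45, -1.43 at bounds). Nkx2-5, the homeobox factor of heart muscle, stood at 10.79, 6.84 and below detection in the embryonic, neonatal and adult array, at least 23.1-fold lower. Myocd, a co-activator of serum response factor, was 34.2-fold lower, and Hopx, a homeodomain protein of heart muscle, 28.6-fold lower. Several factors that are also active in non-muscle heart cells lay within 2-fold: Gata6 at 12.97 and 12.14, Tbx20 at 10.52 and 10.14, and Tbx18 at 9.35 and 9.09. The higher member was Heyl, a Notch target of mural cells, at least 8.52-fold higher.

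Of the natriuretic peptide axis, by which heart muscle signals to kidney and vessels, the hormone genes Nppa and Nppb were lower. Nppa stood at 14.74, 13.94 and 8.56 in the 3 arrays (72.4-fold lower in the adult than in the embryonic one), and Nppb at 13.40, 8.59 and below detection, at least 142-fold lower, the largest bound among genes detected only in the embryonic array. Corin, the protease that activates the Nppa product, was 12.4-fold lower. Npr2, a receptor guanylyl cyclase, was 7.05-fold higher, and the soluble cyclase subunits Gucy1a1 and Gucy1b1 were 2.30-fold and 2.43-fold higher. Over the list, 3 of 10 were higher and 3 lower, near the shares of all measured genes (25.1% and 26.6%). Its median changed sign with median centring and with no detection filter, so the list as a whole had no clear direction.

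Energy metabolism was lower in the adult array along nearly every nuclear-encoded step. Glycolysis had 18 of 21 genes lower and 0 higher (median -1.85). The largest differences were in muscle isoforms: Pgam2, muscle phosphoglycerate mutase, was 96.4-fold lower (13.81 and 7.22) and Eno3, muscle enolase, 48.6-fold lower, while the neuronal isoform Eno2 differed by -0.20. Slc2a1, the fetal glucose carrier, stood at 13.38, 9.83 and 9.82 in the embryonic, neonatal and adult arrays, 11.8-fold lower in the adult, and Gapdh was 2.08-fold lower. Glycogen genes had 8 of 12 lower and 1 higher, with Gyg, the primer of glycogen, 41.2-fold lower.

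Fatty acid oxidation had 19 of 26 genes lower and 3 higher (median -1.61, -1.49 at bounds). Cpt1b, the muscle gate for fatty acid entry into mitochondria, was at least 72.3-fold lower, and Fabp3, the heart fatty acid binding protein, 22.1-fold lower. The higher members were Lpl, which frees fatty acids from lipoproteins (12.70 and 14.14, 2.71-fold), the fatty acid carrier Slc27a1 (2.12-fold) and the brain isoform Cpt1c (at least 1.89-fold). Citric acid cycle and pyruvate entry genes had 20 of 27 lower and 0 higher (median -1.95), among them Idh3a, 10.7-fold lower. The co-activator Ppargc1a and the nuclear receptors Esrrg and Esrrb, regulators of these pathways, were at least 16.9-fold, 20.2-fold and 10.1-fold lower.

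The respiratory chain gave a contrast between its nuclear and its mitochondrial genes. Complex I had 32 of 36 nuclear genes lower and 0 higher (median -1.71), complexes III and IV 19 of 23 lower and 1 higher (median -1.87, -1.84 at bounds), and ATP synthase 11 of 14 lower and 0 higher (median -1.42). Muscle isoforms led: Cox6a2 was 31.2-fold lower and Cox7a1 12.3-fold lower, while Cox4i1, made in most tissues, differed by -0.65 and Cox4i2, the isoform of lung and vessel, was at least 3.50-fold higher. For Ndufb8, a complex I subunit at -2.09 on its brightest probe, the mean over detected probes was 0.20. The 13 member probes for transcripts of mitochondrial DNA did not follow. Of these, 12 lay within 2-fold, from -0.15 ± 0.08 for COXI (14.83 and 14.69) to 0.71 ± 0.08 for ND1 (14.28 and 14.99). The remaining one, ND6, the transcript of the opposite strand, was detected only in the adult array, at least 3.04-fold higher. Most of the 12 lay near the top of the range, where differences are compressed. ND3, on a dimmer probe, stood at 7.84 and 8.16.

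**Figure D4:**
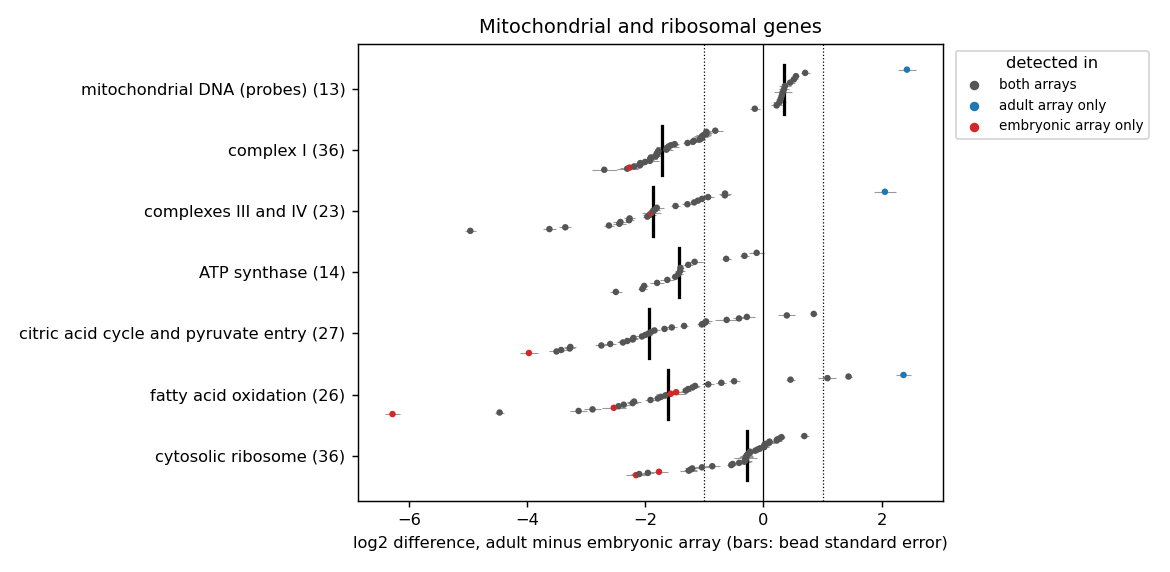
Log2 difference, adult minus embryonic array, of the probes for mitochondrial DNA transcripts and of the measured genes of 6 lists, with bead standard errors and a black bar at each median. Of 13 mitochondrial DNA probes 12 lie within the dotted 2-fold lines, as do most ribosomal proteins, while most nuclear respiratory genes lie left of them.

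Mitochondrial ribosomal proteins, which translate those transcripts, had 55 of 70 members lower and 0 higher (median -1.32, -1.29 at bounds). Cytosolic ribosomal proteins had 8 of 36 lower and 0 higher (median -0.28), close to the median over all genes. The 8 lower members were on dimmer probes, at 10.94 (Rpl38) or less in the embryonic array. Most of those within 2-fold lay near the top of the range, where differences are compressed. Rps18, of the small subunit, stood at 13.94 and 14.63. Ribosome biogenesis genes had 11 of 21 lower and 0 higher (median -1.04). Aminoacyl-tRNA synthetases had 15 of 27 lower and nucleoporins 11 of 16 lower, each with 0 higher. Proteasome genes had 10 of 29 lower, and 1 higher, Psmc1, which was detected only in the adult array with 4.72, 4.59 and 8.91 in the 3 arrays.

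Genes of cell division were lower almost without exception. All 37 measured DNA replication genes were lower (median -2.67, -2.40 at bounds), as were 46 of 47 mitosis genes (median -4.48, -3.92 at bounds), with 0 higher in either list. Of the 47, 13 were detected in both arrays, and all of those but Cdc25b were lower. The rest were detected only in the embryonic array, which left them little room to be level. A further 10 on the array were detected in neither. Ccnb1, the cyclin that drives entry into mitosis, stood at 12.26, 9.35 and below detection in the embryonic, neonatal and adult array, at least 64-fold lower. Its kinase Cdk1 was at least 34.6-fold lower, Plk1, a kinase of spindle poles, at least 48.1-fold, and Cdca8, of the chromosomal passenger complex, 56.7-fold (12.19 and 6.36). Cdc25b, a phosphatase that activates Cdk1, was the mitosis gene within 2-fold, at 7.26 and 6.95. The neonatal levels of Ccnb1, Cdk1, Plk1 and Cdca8 all lay between the other 2 arrays.

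In replication, the helicase subunit Mcm2 was 19.3-fold lower, Uhrf1, which carries DNA methylation through replication, 36.7-fold, and the ribonucleotide reductase subunit Rrm2 at least 38.1-fold. All 6 measured minichromosome maintenance genes and 17 of 20 centromere proteins were lower. In the G1 list 11 of 18 were lower and 1 higher: E2f1 was 16.6-fold lower, Ccnd1 differed by -0.28, and Myc was the higher member, at least 3.61-fold. Growth arrest genes had 8 of 16 higher and 2 lower (median 0.86). Cdkn1a, the inhibitor p21, stood at 9.15, 10.38 and 12.06 (7.54-fold higher) and Gadd45a was 12.5-fold higher, while Cdkn1c, an imprinted inhibitor of the embryo, was 4.60-fold lower. Replication-dependent histones such as H2ac15 and H2ac12 were 37.6-fold and 36.1-fold lower, but their near-identical copies can share a probe, which leaves each single gene uncertain.

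The promoters of 3 mitosis genes are shown because the CCAAT box and the cell cycle homology region, TTTGAA, are known elements of such genes. Each runs 250 bases to the start in GRCm38.p6, with these 2 motifs in capitals on either strand.
Cdk1, chr10:69352913-69353162, minus strand: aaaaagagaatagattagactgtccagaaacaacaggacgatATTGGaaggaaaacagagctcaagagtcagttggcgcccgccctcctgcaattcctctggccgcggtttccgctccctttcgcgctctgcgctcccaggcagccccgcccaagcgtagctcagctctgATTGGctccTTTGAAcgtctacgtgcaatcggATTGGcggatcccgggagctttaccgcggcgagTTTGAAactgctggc
Cdc20, chr4:118437344-118437593, minus strand: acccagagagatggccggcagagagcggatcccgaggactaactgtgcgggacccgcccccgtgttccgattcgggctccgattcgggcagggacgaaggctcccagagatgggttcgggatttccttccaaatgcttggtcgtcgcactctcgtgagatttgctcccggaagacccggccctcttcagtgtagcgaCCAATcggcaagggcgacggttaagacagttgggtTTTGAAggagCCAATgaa
Top2a, chr11:99024190-99024439, minus strand: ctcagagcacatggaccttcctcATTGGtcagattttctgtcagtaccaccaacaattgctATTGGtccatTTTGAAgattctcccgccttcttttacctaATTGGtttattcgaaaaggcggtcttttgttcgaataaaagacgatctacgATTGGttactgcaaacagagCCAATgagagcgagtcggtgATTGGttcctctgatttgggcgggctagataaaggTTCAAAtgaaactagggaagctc
Cdc20, an activator of the anaphase-promoting complex, and Top2a, the topoisomerase of dividing cells, belong with Cdk1 to the mitosis list. CCAAT was found in 74.4% of 43 promoters of measured mitosis genes, 61.1% of 36 promoters of replication genes and 33.8% of all promoters. TTTGAA was found in 32.6%, 16.7% and 16%. Among all genes lower in the adult array the share with CCAAT was 37.0%, and among all higher genes 31.4%. RefSeq promoters were found for 8362 of the 10554 measured genes, and the motifs were searched on both strands with overlaps allowed.

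Fetal growth genes were lower as well. The RNA-binding proteins Igf2bp1 and Igf2bp3, which hold on to growth transcripts in the embryo, were at least 47.8-fold and 59.7-fold lower, and the list they belong to had 11 of 14 lower and 0 higher. Among imprinted growth genes 9 of 14 were lower and 2 higher. H19, a noncoding RNA of the fetus, stood at 13.90, 13.73 and 6.68 (149-fold lower in the adult than in the embryonic array), so its neonatal level was near the embryonic one. Igf2, the growth factor beside it, stood at 14.83, 14.63 and 11.50 (10.0-fold lower), and Mest was 68.4-fold lower. Dlk1 was highest in the neonatal array, at 9.52, 13.85 and 8.03. Meg3 and Ndn lay within 2-fold. The higher members were Impact (2.03-fold) and Dcn, a matrix proteoglycan counted in the list because it lies in an imprinted region.

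The extracellular matrix made up much of the upper tail. The summed fibroblast markers given above moved with it, and several of them, such as Col1a1, Dcn and Mmp2, belong to both lists, so their part cannot be told apart. Of 30 collagen genes and their enzymes 20 were higher and 2 lower (median 2.57, 2.02 at bounds, 1.56 among genes detected in both arrays). Col1a1, the main fibrillar chain, was below detection in the embryonic array and at 13.87 and 12.42 in the neonatal and adult ones, at least 70.9-fold higher in the adult than in the embryonic array. Col3a1 was 78.5-fold higher (6.98 and 13.28), Col6a3, of the beaded microfibrils around cells, 155-fold, and Col15a1, of basement membrane zones, at least 127-fold. Col2a1, the cartilage collagen, which the embryonic valves also make, was the opposite, at 10.46 and below detection, at least 18.4-fold lower. Col1a1 and Col3a1 were thus higher in the neonatal than in the adult array, while Col15a1 (12.87 and 13.26) lay within 2-fold between them.

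Small leucine-rich proteoglycans were further apart. Prelp was at least 357-fold higher, Lum at least 262-fold, Bgn at least 238-fold, and Dcn, detected in both arrays, 129-fold higher (7.69 and 14.71). Over all proteoglycans 18 of 24 were higher and 2 lower (median 2.90, 2.63 at bounds, 1.21 among genes detected in both arrays). Gpc3, a growth-restraining glypican of the embryo, was 4.56-fold lower, and Vcan, versican of the embryonic cushions, was level at 10.32 and 10.31. Elastic fibre and crosslinking genes had 18 of 20 higher and 0 lower (median 4.61, 4.02 at bounds), led by Ltbp4, a binder of latent TGF-β, at least 278-fold higher, and by Fbln2, at 7.31, 14.30 and 14.47 (143-fold). Matricellular and adhesive glycoproteins had 22 of 23 higher (median 4.42, 3.54 at bounds): Mgp, an inhibitor of calcification, was 177-fold higher and Tnxb at least 220-fold. The lower one was Ccn4, 22.5-fold lower.

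Matrix proteases and their inhibitors had 26 of 28 higher and 2 lower (median 3.76, 3.41 at bounds). Mmp2, gelatinase A, stood at 7.44, 14.99 and 14.80 in the 3 arrays, 165-fold higher in the adult than in the embryonic one. Mmp3, stromelysin, differed in its course, at 12.61 in the adult array and below detection in the other 2, at least 80.9-fold higher. Serpinf1 was 176-fold higher and Htra3, a secreted protease, at least 268-fold. Integrins and laminins were mixed, with 14 of 22 higher and 5 lower: Itga6 was 10.4-fold lower, Itgb1bp2, a muscle partner of integrin, at least 12.4-fold lower, and Lama2, the laminin chain around adult muscle, 14.3-fold higher.

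**Figure D5:**
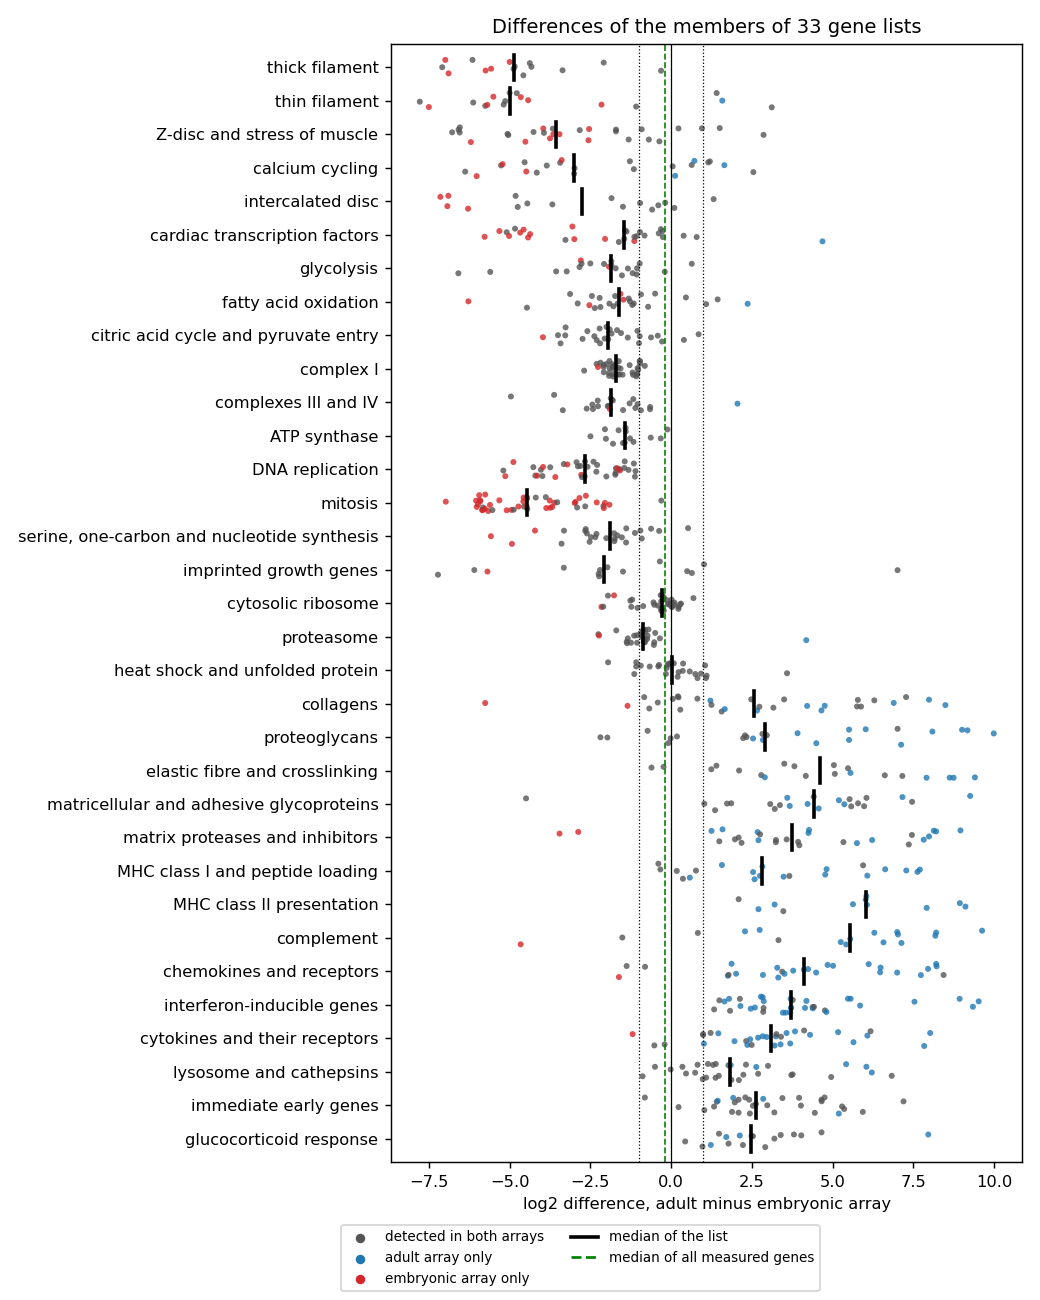
Log2 difference, adult minus embryonic array, of every measured member of the gene lists named on the y axis. Points are genes coloured by where they were detected, black bars are list medians, dotted lines mark 2-fold and the green line is the median of all measured genes (-0.18). The muscle, metabolic and division lists lie to the left and the matrix, immune and immediate early lists to the right.

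Immune genes were another large group of the upper tail, with which the macrophage markers moved; their part was not tested. Antigen presentation stood out by level: all 11 measured MHC class II presentation genes were higher (median 6.03, 4.33 at bounds) and 15 of 21 of the class I list, with 0 lower in either. Of the class II genes 2 were detected in both arrays, with a median of 2.78. Cd74, the invariant chain, stood below detection, at 8.08 and at 13.97 in the embryonic, neonatal and adult array, at least 207-fold higher in the adult than in the embryonic one. H2-Eb1, a class II chain, was below detection in both younger arrays and at 12.48 in the adult one, at least 73.9-fold higher. H2-D1, a class I chain, was 61.7-fold higher (8.87 and 14.82), and Psmb8 and Tap2, which cut and carry peptides, were at least 51.5-fold and 32.5-fold higher. The proteasome activators Psme1 and Psme2 differed by -0.40 and -0.33. Class I genes have near-identical copies that probes may share, so the single H2 genes are uncertain. Markers of dendritic and B cells were detected for 0 of 10 in the embryonic and 6 of 10 in the adult array, with Ms4a1, Itgax and Flt3 undetected in both.

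All 35 measured interferon-inducible genes were higher (median 3.70, 2.57 at bounds). Ifitm3, which blocks viral entry, was at least 243-fold higher, with 12.82 and 14.20 in the neonatal and adult array. Ly6a, known as Sca-1 and found on vascular and progenitor cells, was at least 253-fold higher, and Isg15, a ubiquitin-like modifier, at least 15.1-fold. Of these 35, 10 were detected in both arrays and 25 only in the adult array. A further 13 on the array, among them Ifit1, Mx1 and Gbp2, were detected in neither. The guanylate-binding and IRG GTPases had 6 of 6 higher, all of them detected only in the adult array.

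The promoters of Ifit3 and Isg15 are shown for the interferon response motif, GAAA, any 2 bases and GAAA again, in capitals on either strand. They are RefSeq's for GRCm38.p6 and run 250 bases to the start. Both genes are members of the interferon-inducible list.
Ifit3, chr19:34583279-34583528, plus strand: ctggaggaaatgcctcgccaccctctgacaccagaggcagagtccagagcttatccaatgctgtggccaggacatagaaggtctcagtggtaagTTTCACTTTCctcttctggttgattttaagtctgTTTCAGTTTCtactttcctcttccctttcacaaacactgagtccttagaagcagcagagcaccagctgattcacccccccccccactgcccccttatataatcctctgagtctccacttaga
Isg15, chr4:156200819-156201068, minus strand: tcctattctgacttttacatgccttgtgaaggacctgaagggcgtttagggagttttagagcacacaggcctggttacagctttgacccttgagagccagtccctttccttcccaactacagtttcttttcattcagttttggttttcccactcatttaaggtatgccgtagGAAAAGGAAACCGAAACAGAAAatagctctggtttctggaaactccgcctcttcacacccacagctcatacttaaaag
The motif was in 36.1% of 36 promoters of measured interferon-inducible genes and 2.98% of all promoters. It was in 3.94% of the promoters of higher genes and 2.07% of those of lower genes.

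Complement, the cascade that tags targets for clearance, had 14 of 17 genes higher and 2 lower (median 5.55, 4.16 at bounds, 0.83 over the 3 genes detected in both arrays). C3, its hub, stood below detection, at 11.67 and at 14.78, at least 364-fold higher, the largest bound of any gene. Serping1, the C1 inhibitor, was at least 291-fold higher and C1qb, made by macrophages, at least 51.3-fold. Masp1, a protease of the lectin pathway, was at least 11.3-fold lower, and Clu, clusterin, 2.85-fold lower.

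Chemokines and their receptors had 24 of 27 genes higher and 2 lower (median 4.11, 3.37 at bounds, 1.78 over the 5 genes detected in both arrays). Cxcl1, an attractant of neutrophils, stood at 6.4, 14.23 and 14.84, 347-fold higher in the adult than in the embryonic array, the largest difference of any gene detected in both. Ccl11 and Cxcl14 were at 12.72 and 12.78 in the adult array and below detection in the other 2. Ccl7, an attractant of monocytes, was at least 112-fold higher. Cxcl12, by which the embryo guides migrating cells, was 2.60-fold lower. Among cytokines and their receptors 27 of 32 were higher and 1 lower: Il6 was at least 92.4-fold higher, Il1b at least 86.5-fold, and Il33, an alarm cytokine of stromal cells, 72.4-fold (6.91 and 13.09). The lower one was Kit, the receptor of stem cell factor, at least 1.69-fold.

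Promoters of the neighbouring chemokine genes Cxcl1 and Cxcl2 are shown for the NF-κB motif (GGGA, any base, TTTCC), in capitals, again over 250 bases to the start in GRCm38.p6.
Cxcl1, chr5:90890995-90891244, plus strand: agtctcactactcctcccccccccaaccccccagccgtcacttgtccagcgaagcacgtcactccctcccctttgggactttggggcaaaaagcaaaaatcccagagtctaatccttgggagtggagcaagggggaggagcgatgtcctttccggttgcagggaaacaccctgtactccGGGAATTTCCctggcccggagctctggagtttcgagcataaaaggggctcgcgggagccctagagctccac
Cxcl2, chr5:90903649-90903898, plus strand: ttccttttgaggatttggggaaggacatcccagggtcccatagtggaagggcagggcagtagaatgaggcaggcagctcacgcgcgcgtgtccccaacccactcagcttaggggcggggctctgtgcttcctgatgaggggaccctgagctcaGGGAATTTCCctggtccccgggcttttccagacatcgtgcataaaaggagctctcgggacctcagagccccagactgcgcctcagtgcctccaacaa
The motif was in 0.65% of promoters of higher genes, 0.28% of those of lower genes and 0.36% of all promoters, so it is rare in each class.

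Macrophage markers were called higher in 15 of 15 measured. Of 18 on the array, 15 were detected in the adult and 4 in the embryonic array. Most were thus measured only through the adult array, which left them little room to be level. Adgre1, the F4/80 antigen, stood below detection, at 10.89 and at 11.32, at least 32.9-fold higher. Csf1r, the receptor that macrophages depend on, was at least 22.6-fold higher. Lyz2, lysozyme, was at 8.82, 9.10 and 13.33 (22.8-fold). Lysosomal genes, shared by all cells, had 22 of 30 higher and 0 lower, with a median of 1.81 (1.63 at bounds). Among them the proteases Ctsk and Ctsa were 31.1-fold and at least 30.7-fold higher, and the proton pump subunit Atp6v1a differed by -0.01. Of 9 neutrophil markers 1 was detected in the embryonic and 5 in the adult array, with summed intensities of 135 and 710. S100a9, a subunit of the granule protein calprotectin, stood below detection, at 9.63 and at 8.0, at least 3.31-fold higher in the adult than in the embryonic array, and S100a8 below detection, at 9.58 and at 7.41. Both were thus highest in the neonatal array, and Mpo, Ngp and Ltf were not detected in the embryonic or adult array.

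Genes of the immediate early response, which is switched on within minutes of stimulation, had 29 of 31 members higher and 0 lower (median 2.63). Fosb stood at 8.32, 10.76 and 14.26 (61.3-fold), Junb at 8.56, 11.33 and 13.92 (41.1-fold), and Klf2, a factor induced by flow in endothelium, at 7.05, 12.38 and 14.25 (147-fold). Fos and Egr1 were already bright in the embryonic array, at 12.86 and 13.35, and were 3.70-fold and 2.04-fold higher. Glucocorticoid response genes had 15 of 17 higher and 0 lower (median 2.49): Hsd11b1, which regenerates active steroid, was at least 168-fold higher and Klf9 25.3-fold, while Fkbp5 differed by 0.97.

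Stress genes were less one-sided. Heat shock and unfolded protein genes had 4 of 26 higher and 4 lower (median 0.04), with Hspa1b 2.11-fold higher and the mitochondrial chaperone Hspa9 3.87-fold lower. Antioxidant and glutathione genes had 15 of 33 higher and 7 lower. Gsta3, a glutathione transferase, was at least 213-fold higher and Gstm1 42.7-fold (8.42 and 13.83), while Sod2, the mitochondrial superoxide dismutase, was 4.58-fold lower. Clock genes had 9 of 16 higher and 2 lower. Arntl, the core activator, was 9.11-fold higher (7.71 and 10.89) and its output gene Dbp 2.09-fold lower; no time of day of collection is stated.

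Growth factor and signalling lists held members at both ends. In the IGF, FGF, PDGF, VEGF and EGF families 20 of 41 were higher and 10 lower. Pdgfra, the receptor that marks fibroblasts, was 63.8-fold higher, Pdgfrb, of mural cells, at least 30.4-fold, and Igfbp6 at least 59.9-fold, while Igfbp2 was at least 9.34-fold lower, Fgf13 17.5-fold lower and Erbb2, the neuregulin co-receptor of heart muscle, 5.66-fold lower. TGF-β and BMP genes had 16 of 28 higher and 2 lower (median 1.08, 1.03 at bounds): Tgfbr2 was 61.0-fold higher, and Bmp7 and Bmp5 were at least 26.1-fold and 2.3-fold lower. The retinoic acid list had 11 of 12 higher, with Aldh1a1, a retinoic acid synthase, at least 86.2-fold and Rarres2, the adipokine chemerin, 162-fold.

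In the Notch list 7 of 12 were higher and 1 lower: the receptor Notch3 of mural cells was 10.0-fold higher and Hey2, a Notch target of ventricular muscle, at least 18.8-fold lower. Wnt genes had 9 of 23 higher and 4 lower, the secreted antagonists Sfrp2 (17.0-fold), Wif1 (10.1-fold) and Frzb (at least 3.48-fold) among the higher. Homeobox and patterning genes had 9 of 22 higher and 6 lower. Sox11, a factor of immature cells, stood at 11.21, 9.03 and below detection, at least 31.0-fold lower, while Sox9, made by valve and stromal cells, was 30.1-fold higher (7.42 and 12.34). Osr1, at -1.09 on its brightest probe, had a mean over detected probes of 0.82.

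Among red cell genes the embryonic globins were lower and the adult globins were not higher. The embryonic globins Hbb-y, Hba-x and Hbb-bh1, made by primitive red cells of the yolk sac, stood at 13.20, 13.11 and 13.06 in the embryonic array and below detection in the neonatal and adult ones, at least 123-fold, 115-fold and 112-fold lower in the adult array. Of the adult globins, Hba-a1 was at 14.17 and 13.57 and Hbb-b1 at 13.19 and 13.75, within 2-fold, and Hbb-b2 was 2.69-fold lower. Slc4a1, the anion exchanger of the red cell membrane, was at least 16.1-fold lower and Tfrc, the transferrin receptor, 21.4-fold lower. Globin copies share sequence, so the adult globins cannot be fully separated by probe.

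Endothelial markers had 7 of 13 measured genes higher and 2 lower (median 1.09). Eng and Tek, receptors of vessel growth, were at least 26.9-fold and 34.3-fold higher, and Robo4 and Egfl7 were lower. Kdr, the main VEGF receptor, stood at 6.86 and 6.87, near the lowest detected levels (6.27 and 6.26), where differences are compressed. Of 13 smooth muscle and pericyte markers 7 were higher and 2 lower: Rgs5, a pericyte gene, was at least 64.2-fold higher and Myh11, smooth muscle myosin, at least 28.1-fold, while Acta2 was within 2-fold (14.34 and 14.01) and Des, an intermediate filament of all muscle, at least 9.78-fold lower. Rgs5 and Myh11 were detected only in the adult array. Among genes detected in both arrays the median of this list was negative. Skeletal muscle markers that the embryonic heart shares, Mylpf and Atp2a1, were also lower, and the skeletal factors Myod1 and Myog were not detected in either array.

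Sex-linked genes differed between the pools. Eif2s3y, on the Y chromosome, stood at 10.22, 10.34 and below detection in the embryonic, neonatal and adult array, and Kdm5d at 7.22, 6.93 and below detection. Xist, the noncoding RNA of the inactive X, stood at 9.12, 10.70 and 11.24. No label states the sexes of the pooled hearts.

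Across gene families grouped by symbol, counts differed widely. All of the 6 measured Fc receptors and the 4 Ly6 genes were higher, as were 11 of 12 C-type lectins, 17 of 19 H2 genes, 13 of 14 matrix metalloproteinases, 20 of 26 cadherins and protocadherins, and 8 of 11 Kruppel-like factors. The share over all measured genes was 25.1%. Most of the higher Fc receptors, Ly6 genes, C-type lectins and H2 genes were detected only in the adult array, which left them little room to be level. Some stayed under 2-fold at the bound, such as Fcgr1 (at least 1.54-fold) and Clec5a (at least 1.16-fold). Cytochromes P450 had 11 of 16 higher and 0 lower. Zinc finger genes had few higher members, with 10 of 201 higher (4.98%) and 46 lower (22.9%) (median -0.41, -0.35 at bounds). Transmembrane proteins, with 35 of 139 higher and 34 lower, lay near the shares of all genes. Solute carriers had 57 of 188 higher and 39 lower, beside 25.1% higher and 26.6% lower over all genes. Which side outnumbers the other depends on scaling, as given above for all genes, and was not recounted for this family. By the authors' probe definitions, the word receptor went with 189 of 408 genes higher and 62 lower, and mitochondrial with 18 of 293 higher and 188 lower.

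The position of genes added little: the share higher in the adult array ran from 20.1% on chromosome 8 to 30.9% on chromosome 15, and chromosome X held 21.7%. Long noncoding RNAs had 47 of 188 measured genes higher (25%) and 59 lower, near the shares of all genes, and pseudogenes 4 of 64 higher. Among member probes with no gene name, 28 matched antigen receptor segments, 23 of them higher and 3 lower. The remaining unnamed probes, from clone collections for the most part, were within 2-fold in 437 of 941 and 240 of 521 cases for the 2 clone series.

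The error that can be measured is that between beads. Its median over genes was 0.112 log2 units, from 0.0660 at the 5th percentile to 0.211 at the 95th, with a median of 37 beads per probe. Of the 5454 genes at least 2-fold apart, 870 lay within 2 such errors of the 2-fold line, and 1046 genes short of it did so from the other side. Different probes of a gene give a wider view: over 1905 genes with several probes detected in both arrays, the gap between the lowest and the highest difference had a median of 0.47. Of 676 such genes called by their brightest probe, every probe gave the same call for 433 (64.1%). For 20 genes (1.05%) probes were at least 2-fold apart in opposite directions, among them Ankrd40 (-1.43 and 2.37), Hira (-1.60 and 1.79) and Tsc22d3, a glucocorticoid target (-1.52 and 2.22). Neither error covers the spread between animals or preparations.

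At the edges of the rules, 325 probes had the lowest detection score that counted, 0.99002, and 75 the highest that did not, 0.98939. The genes nearest the 2-fold line were Fut8 (7.76 and 8.76) and Poll (9.88 and 8.88) inside it and Mapre1 (13.34 and 12.34) and Fgfr2 (9.16 and 8.16) outside it.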

How the data were processed

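Probe intensity was measured on 3 bead arrays, 1 per stage, with RNA pooled from several hearts. Trizol served for extraction, per the labels' protocols, and the RNA was cleaned on a Qiagen column and labelled with biotin through an Ambion MessageAmp kit. The authors deposited raw mean bead intensity with no background subtracted, a linear scale, and, per the file headers, the bead spread, bead number and a detection score, a fraction rising to its maximum for bright probes. The authors also deposited processed intensity and a natural log of adult over embryonic with unstated normalization. Array version and scanner software: not given in the sources used here. Probes that were detected made up 30.2% of the embryonic, 32.9% of the neonatal and 30.3% of the adult array, and 1 array per stage limits the precision.

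From the raw intensity, neqc of limma 3.58.1 in R 4.3.3 subtracted background estimated from the detection score, with an offset of 16, and values were then quantile normalized over all 3 arrays on the log2 scale. This step was tested on simulated data. Quantile normalization hides any shift common to all genes. Probes were named through the RefSeq table of GRCm38.p6: 11884 by accession, 22852 by symbol or synonym, 125 left out because both named different genes, and 11771 without a gene name. The probe with the highest mean level among detected probes stood for a gene. Bead standard errors are the bead spread over the square root of the bead number, carried to the log2 scale. A fold for a gene detected in 1 array used the lowest level among detected probes as bound (6.27 embryonic, 6.26 adult).

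No test was made. Named genes are the 25 largest differences each way among genes detected in both arrays, the 15 largest bounds each way, members of fixed lists and families with known roles or extreme values, genes with opposite probes and those next to a threshold. Motifs were chosen after the differences were known: 14 were searched, and those not described in the results are given in the closing section. The members and lists were chosen with earlier results of these data known. The alternatives were median centring, no background correction, an offset of 50, the authors' processed values, the mean over detected probes, only genes detected in both arrays, no detection filter, a detection p under 0.05, a 4-fold line, and the 2 arrays normalized alone.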

Additional observations from a re-analysis of the deposited data

How the results depend on the processing

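Counts of genes at least 2-fold higher and lower in the adult array were 2647 and 2807, a share of 48.5% higher. With median centring, lower genes numbered 4379 and the share was 31.6%. Among genes detected in both arrays the counts were 1362 and 1765 and the share 43.6%. At 4-fold they were 1526 and 1149, and the share was 57.0%. The other alternatives left all 3 within 1.5 times. The cause of the shift under median centring was not tested; the smaller counts follow from fewer genes or a stricter line. Among genes detected in both arrays, the medians of smooth muscle and pericyte markers (-0.24) and epicardial markers (-0.98) turned sign. That of sex-linked genes did too (2.11), but it then rested on Xist alone. The median of platelet markers turned sign with no detection filter (-0.35) and at a detection p under 0.05 (-0.52). Lists with a median near 0 also turned sign. With median centring these were the natriuretic axis (-0.23), ion channels (-0.65), heat shock (-0.66), antioxidant (-0.08), semaphorin (-0.57) and lymphatic endothelial genes (-0.20). With no detection filter they were the natriuretic axis (-0.20) and ion channels (-0.24). At a detection p under 0.05 they were ion channels (-0.31), heat shock (-0.01) and semaphorin genes (-0.0018), and ion channels did so under the mean over probes (-0.12) and with no background correction (-0.0055). Median centring moved the medians of ATP synthase to -2.19, ribosome biogenesis to -1.73 and TGF-β and BMP genes to 0.61. Under the mean over detected probes Asph (-0.79), Ndufb8 (0.20), Osr1 (0.82), Pdlim7 (-0.19) and Tpm2 (-1.62) turned sign, and at a detection p under 0.05 Sall4 did (0.33), since another probe then stood for it. Of 977 named genes at least 2-fold apart, 53 fell under 2-fold with median centring, 19 with no background correction, 14 with an offset of 50 and 14 with the mean over probes. No paired analysis was possible because each stage has 1 array. The lack of replicates is a limit, and signals near background or near the top of the range compress differences.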

Other observations

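Other promoter motifs, searched in the 250 bases before the start on both strands, gave these shares of promoters of genes higher in the adult array, genes lower in it and all promoters. The ETS motif (CCGGAAG) was in 6.47%, 13% and 6.91%, and in 16.5% of promoters of genes within 2-fold. The TATA box was in 9.19%, 6.35% and 12.4%. The activator protein 1 motif (TGANTCA) was in 6.16%, 3.54% and 6.75%. The MEF2 motif was in 1.91%, 2.31% and 2.92%, and in 5.22% for genes at least 8-fold lower. The E2F motif (TTTCCCGC) was in 1.15%, 2.14% and 0.895%, the cAMP response motif (TGACGTCA) in 1.57%, 2.38% and 1.55%, the clock E-box (CACGTG) in 6.85%, 7.61% and 6.02%, the estrogen-related receptor motif (TCAAGGTCA) in 0.345%, 0.175% and 0.387%, and the NRF1 motif in 0.689%, 1.75% and 0.782%. A share is a description of letters and was not tested.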
